A study of Homo sapiens with 6 samples.

Results

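The signal recognition particle (SRP) brings ribosomes that are making secreted or membrane proteins to the endoplasmic reticulum (ER). The 10 genes described here encode the parts of this route: the receptor subunits SRPRA and SRPRB, the SRP proteins SRP9, SRP14, SRP19, SRP54, SRP68 and SRP72, and the channel subunits SEC61A1 and SEC61B. They were found by symbol among the 32029 genes listed, and all 10 passed the filter on low counts, which kept 14996 genes. The set was chosen by the measured change of SRPRA, which was much lower after ZEB1 knockdown. The values of the 10 genes for this comparison are therefore given as a description, without a test.

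Expression was measured by RNA-seq in SW480, a human colorectal adenocarcinoma cell line, labelled as wild type in all 6 cultures. ZEB1 encodes a zinc-finger transcription factor best known as a repressor of epithelial genes. Of the 6 cultures, 3 received a control siRNA (siControl, labelled siNC in the sample names) and 3 an siRNA against ZEB1 (siZEB1), and RNA was taken after 48 h. The comparison addresses how ZEB1 knockdown changed expression in this 1 line. Untransfected cultures and a rescue with ZEB1 are not analysed here, and the sequences of the siRNAs are not given in the sources used here.

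The route works in steps. SRP54 binds a signal sequence as it leaves the ribosome, SRP9 and SRP14 sit on the Alu domain of the SRP RNA and slow translation, and SRP19, SRP68 and SRP72 assemble the rest of the particle. The complex docks on a receptor made of SRPRA, a GTPase on the cytoplasmic face of the ER, and SRPRB, a membrane-anchored GTPase that holds SRPRA there. The nascent chain is then passed to the SEC61 channel, whose pore subunit is SEC61A1, with SEC61B as a small accessory subunit. Secretory and membrane proteins of epithelial cells, such as mucins, adhesion proteins and transporters, enter the ER by this route.

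A 7-mer in the 3′UTR, GAACACA, had been singled out from earlier results of these data, in genes that were lower with siZEB1. It is shown here because it was present in the SRPRA 3′UTR. Among the 10 genes and 51 tested relatives of the pathway, 9 genes held it, each once, in 1 GENCODE 29 transcript per gene. The 30-base windows below are from GRCh38, 5′ to 3′ on the strand of the gene, with the 7-mer in capitals. The first 5 belong to the 5 lowest of these 61 genes by log2 fold change.
SRPRA (chr11:126263049-126263078, minus strand): gctacattgaaGAACACAaacctcttgtta
MMGT1 (chrX:135964734-135964763, minus strand): gccactgttttGAACACAtttccttgaaaa
GET1 (chr21:39397645-39397674, plus strand): tctttagaatgGAACACAgaaaacaaacct
SSR3 (chr3:156542535-156542564, minus strand): acgaggttaaaGAACACActgttccactgt
SPCS1 (chr3:52708014-52708043, plus strand): gatggggaacaGAACACAcaagtatgaagt
The other 4 windows belong to genes whose log2 fold change was above 0.
SRPRB (chr3:133820860-133820889, plus strand): aacatacacaaGAACACActcctattccta
SRP19 (chr5:112869456-112869485, plus strand): gctgagaaagtGAACACAgcagtcctcctt
SEC62 (chr3:169993124-169993153, plus strand): attaccatattGAACACAtggcatttgtag
SEC11A (chr15:84669911-84669940, minus strand): ggtggaatggaGAACACAcgtgttggtgct

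Each culture had between 19040636 and 22357633 counts in all. ZEB1 itself fell, from 1247, 1276 and 908 counts to 136, 132 and 162 (log2 fold change -2.85 ± 0.11 SE, adjusted p = 4.85e-12). The line's epithelial keratins were abundant, with KRT8 at 3455 CPM (reads of a gene over the TMM-scaled library total) with siControl and 3534 with siZEB1. Of the other epithelial markers, KRT18 was at 1418 and 1460 CPM, KRT19 at 72.3 and 223, VIL1 at 4.08 and 20.7 and CDX2 at 102.5 and 41.8. Among markers of other cell types, PECAM1 was at 1.43 and 1.29 CPM, COL1A1 at 10.2 and 8.70, COL1A2 at 0.0495 and 0.174, and ALB at 0.0149 and 0.0350, while PTPRC was not listed.

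The receptor subunits differed in opposite directions. SRPRA (ENSG00000182934, chr11:126262919-126269144, minus strand) had 5965, 6352 and 5400 counts with siControl and 1443, 1549 and 1432 with siZEB1. On the CPM scale these were 280.5, 283.6 and 280.1 against 76.4, 80.6 and 74.8. The siZEB1 cultures all lay far below the siControl cultures, and within each group the cultures were close together. The mean level fell by 72.5%, from 281.4 ± 1.9 to 77.3 ± 3.0 CPM (SD, n = 3), a log2 fold change of -1.86 ± 0.060 (SE), the 45th lowest of the 14996 genes. Coordinates here and for the other genes are those of GENCODE 29 on GRCh38. The 7-mer shown above begins at base 849 of its 997-base 3′UTR. Exons on the opposite strand overlap 3.79% of its exonic bases.

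SRPRB (ENSG00000144867, chr3:133784033-133825772, plus strand) had 1453, 1523 and 1430 counts with siControl and 1699, 1757 and 1598 with siZEB1. The levels were 68.3, 68.0 and 74.2 CPM against 90.0, 91.4 and 83.5 CPM. The groups did not overlap, and here the siZEB1 cultures were the higher ones, by a log2 fold change of 0.33 ± 0.068 (SE). Exons of other genes on the opposite strand, among them RAB6B, overlap 18.4% of the exonic bases of SRPRB, so its counts are uncertain if the strand was not used in counting, which the sources used here do not state.

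Levels of different genes were compared as CPM per kilobase of 1 annotated transcript. With siControl, SRPRA was at 91.7 ± 0.63 and SRPRB at 24.8 ± 1.2 CPM per kb (SD, n = 3). With siZEB1, SRPRA was at 25.2 ± 0.96 and SRPRB at 31.2 ± 1.5 CPM per kb. The ratio of SRPRA to SRPRB was 3.78, 3.84 and 3.48 in the siControl cultures and 0.782, 0.812 and 0.825 in the siZEB1 cultures. By these counts the subunit with more transcript per length was SRPRA in each siControl culture and SRPRB in each siZEB1 culture. With siZEB1 the 2 levels were close, and the order rests on the SRPRB counts, which are uncertain for the reason given above. Dividing by the length of all annotated exons instead, an alternative chosen after the data were seen, gave ratios of 3.79 to 4.18 and 0.852 to 0.899.

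**Figure D1:**
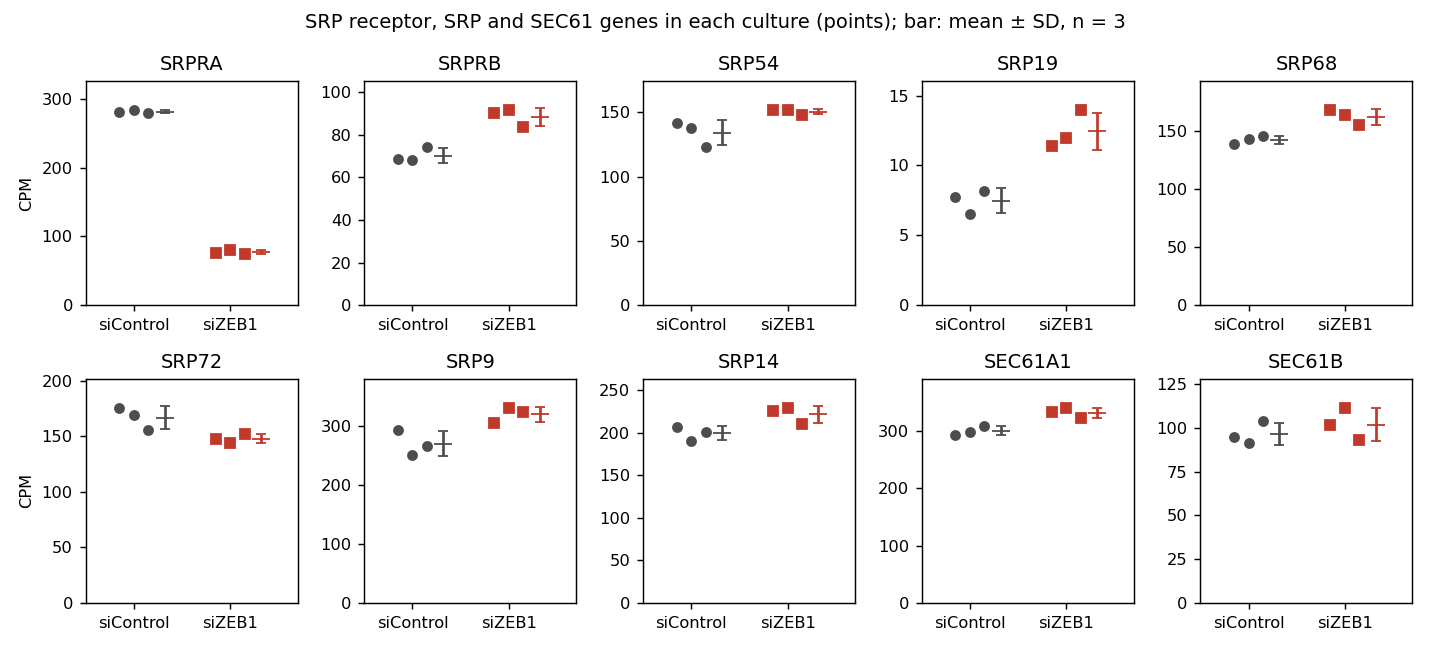
Levels in CPM (linear axis from 0) of the 10 genes in each of 3 siControl cultures (grey circles) and 3 siZEB1 cultures (red squares), with the mean ± SD (n = 3) beside them. SRPRA is at about 280 CPM with siControl and between 74.8 and 80.6 CPM with siZEB1, while no other gene of the set differs by more than 66.0% between group means.

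The SRP proteins differed far less than SRPRA. SRP54 (ENSG00000100883, chr14:34981957-35029567, plus strand), the GTPase subunit that binds signal sequences, had 3015, 3087 and 2375 counts with siControl and 2864, 2917 and 2837 with siZEB1. As CPM these were 141.8, 137.8 and 123.2 against 151.7, 151.7 and 148.2, and the log2 fold change was 0.16 ± 0.065 (SE). The siZEB1 cultures lay just above the siControl cultures, of which replicate 3 was the lowest.

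SRP19 (ENSG00000153037, chr5:112861188-112898371, plus strand), which binds the SRP RNA and is needed for SRP54 to join it, was by far the least abundant of the 10 and had the largest relative increase. It had 165, 146 and 158 counts with siControl and 215, 230 and 267 with siZEB1. The levels were 7.76, 6.52 and 8.20 CPM against 11.39, 11.96 and 13.95 CPM, without overlap, and the mean was 66.0% higher (log2 fold change 0.73 ± 0.12, SE). Exons of AC008575.1 and ZRSR2P1 on the same strand overlap 18.15% of its exonic bases, and how shared reads were counted is not given in the sources used here.

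SRP68 and SRP72 form a heterodimer on the particle, and their transcripts differed in opposite directions by small amounts. SRP68 (ENSG00000167881, chr17:76038775-76072653, minus strand) was at 139.1, 143.4 and 145.5 CPM with siControl and at 168.1, 164.0 and 155.1 CPM with siZEB1, and the log2 fold change was 0.19 ± 0.060 (SE). SRP72 (ENSG00000174780, chr4:56467336-56503681, plus strand) was at 175.4, 169.0 and 155.3 CPM with siControl and at 147.7, 144.1 and 151.6 CPM with siZEB1, and the log2 fold change was -0.17 ± 0.063 (SE). For each of them the groups did not overlap. In SRP72 the gap was narrow, since the lowest siControl culture and the highest siZEB1 culture were at 155.3 and 151.6 CPM.

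SRP9 and SRP14, the partners on the Alu domain, had the most abundant SRP transcripts, in CPM and per length. SRP9 (ENSG00000143742, chr1:225777813-225790466, plus strand) was at 293.5, 250.3 and 266.9 CPM with siControl and at 306.0, 330.7 and 323.8 CPM with siZEB1, and the log2 fold change was 0.24 ± 0.063 (SE). SRP14 (ENSG00000140319, chr15:40035739-40039188, minus strand) was at 207.2, 190.1 and 201.3 CPM with siControl and at 225.0, 229.0 and 210.1 CPM with siZEB1, and the log2 fold change was 0.15 ± 0.060 (SE). In both genes each siZEB1 culture was above each siControl culture. The files also list SRP9P1, a copy of SRP9, with 30 to 44 counts per culture, few beside the 5146 to 6358 counts of SRP9.

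The SEC61 subunits differed least. SEC61A1 (ENSG00000058262, chr3:128051641-128071683, plus strand), the pore, was at 293.9, 298.7 and 309.0 CPM with siControl and at 333.1, 340.3 and 323.1 CPM with siZEB1, and the log2 fold change was 0.14 ± 0.054 (SE). SEC61B (ENSG00000106803, chr9:99222064-99230615, plus strand) was at 94.9, 91.6 and 103.7 CPM with siControl and at 101.6, 111.4 and 93.0 CPM with siZEB1, and the log2 fold change was 0.08 ± 0.075 (SE). SEC61B was the only one of the 10 genes whose groups overlapped. In SEC61A1, 7.32% of exonic bases are also exonic in RUVBL1 on the other strand.

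Without SRPRA, the log2 fold changes of the other 9 genes ran from -0.17 to 0.73 with a median of 0.16, beside a median of -0.01 over all genes tested. In 7 of the 10 genes each siZEB1 culture was above each siControl culture, and in 2 each was below. Over all genes tested the groups did not overlap in 49.5%, with siZEB1 above in 24.3% and below in 25.3%. Since this contrast chose the set, nothing is read from these counts.

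With siControl the top of the order was SRP14 at 185.3 ± 8.1, SRP9 at 182.6 ± 15 and SEC61B at 177.5 ± 12 CPM per kb (SD, n = 3), which did not differ beyond their spread. SRPRA followed at 91.7 and SEC61A1 at 82.7, then SRP54 at 57.7 and SRP68 at 53.9, which lay within their spread of each other. SRP72 at 40.3, SRPRB at 24.8 and SRP19 at 2.64 CPM per kb closed the order. With siZEB1, SRPRA stood below SRPRB and above only SRP19, at 4.38 CPM per kb. These levels depend on the transcript taken, and with the length of all annotated exons SRP9 came first at 156.4 and SRP14 next at 99.5 CPM per kb with siControl.

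**Figure D2:**
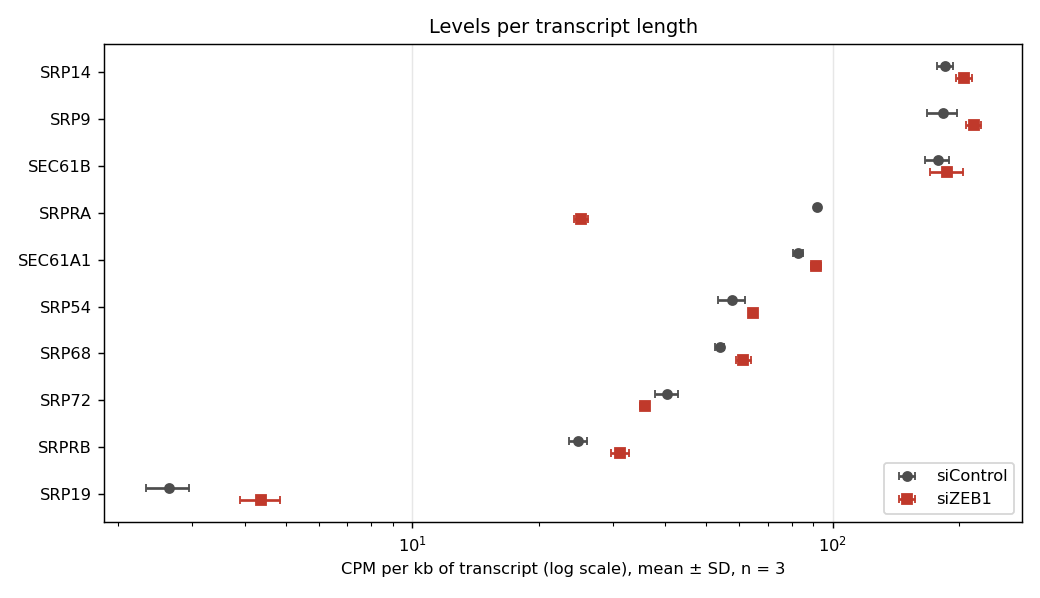
Level of each gene as CPM per kilobase of 1 annotated transcript (log axis), mean ± SD of 3 cultures, with siControl (grey circles) and siZEB1 (red squares). SRPRA moves from 91.7 to 25.2, below SRPRB at 31.2, while the other 9 genes keep their places apart from the close group of SRP14, SRP9 and SEC61B.

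The SRP also holds an RNA. RN7SL1, a gene for it, had 278, 225 and 63 counts with siControl and 154, 131 and 253 with siZEB1. The groups overlapped and the spread within each was wide (0.08 ± 0.31 SE on the log2 scale, adjusted p = 0.863). All exonic bases of RN7SL1 are shared with AL139099.4 on the same strand, so the level of the SRP RNA is not read from these counts. RN7SL3 was below the filter, with 3 to 11 counts per culture, and RN7SL2 was not listed.

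The genes next door were checked for those that start within 1000 bases of a member on the opposite strand. FOXRED1, a mitochondrial protein needed for complex I assembly, starts 89 bases from SRPRA. It was at 47.5, 48.9 and 52.5 CPM with siControl and at 57.0, 54.8 and 54.0 CPM with siZEB1, and the log2 fold change was 0.16 ± 0.070 (SE, adjusted p = 0.0853). Its siZEB1 cultures thus lay above the siControl cultures, whereas those of SRPRA lay below. ALG2, a mannosyltransferase of N-glycan synthesis that starts 108 bases from SEC61B, rose slightly (0.17 on the log2 scale, adjusted p = 0.0443). MGLL, a monoacylglycerol lipase that starts 549 bases from SEC61A1, fell by 0.24 (adjusted p = 0.0124). SRP14-AS1, which starts 123 bases from SRP14, rose by 0.95 on the log2 scale (adjusted p = 0.000567) from 38 to 50 counts to 74 to 86. SRP54-AS1 stood at -0.44 on the log2 scale (adjusted p = 0.172), and ZACN was below the filter.

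The other steps at the ER membrane were covered by 6 lists of 53 genes, of which 51 passed the filter. The lists were compiled with earlier results of these data known, so their counts are not independent of this comparison. Of these 51 genes 20 rose, 7 fell and 24 did not pass the test (adjusted p under 0.05 in the fit over all genes), with a median log2 fold change of 0.13, beside 40.2% called of all genes tested, 19.0% higher and 21.2% lower. The same shares stand beside the counts of each list below, which are small and are not read as results about a complex. Without siControl replicate 2 or without siZEB1 replicate 1 the number that rose was 12, and without siZEB1 replicate 2 it was 13, while 7 fell each time. Over all genes tested, the same fits called 2305, 2323 and 2396 genes higher in that order, against 2849 with all cultures. They called 2637, 2644 and 2739 lower, against 3186. The genes that lost their calls without siControl replicate 2 were SEC61G, TRAM1, SEC11A, SPCS2, STT3A, DDOST, EMC1 and EMC7, of which STT3A, DDOST and EMC1 were named after their values were seen. The rises were mostly small, and all those above 0.5 on the log2 scale were in HSPA5, SEC11C, EMC10 and CAMLG. The lowest values, below -0.8, were those of SSR3, SPCS1, MMGT1 and GET1, a limit chosen after the values were seen.

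Of 11 genes of the translocon and its partners, 5 rose, 2 fell and 4 did not pass the test (median log2 fold change 0.16). Without siControl replicate 2 or without siZEB1 replicate 1, 3 rose. HSPA5, the ER lumenal chaperone BiP, was at 843.5, 862.6 and 818.3 CPM with siControl and at 1224, 1192 and 1171 CPM with siZEB1. Its groups were well apart, and it rose by 0.51 ± 0.048 (SE, adjusted p = 3.31e-07). The TRAP complex, which stands beside the channel and helps some signal sequences to open it, split among its 4 subunits. SSR3 was at 417.1, 388.1 and 386.5 CPM with siControl and at 204.6, 217.1 and 205.5 CPM with siZEB1. It fell by 0.93 ± 0.057 on the log2 scale (SE, adjusted p = 1.70e-09), while SSR1 rose by 0.23 (adjusted p = 0.00452) and SSR2 by 0.33 (adjusted p = 0.000921). SSR4 stood at -0.10 (adjusted p = 0.239) with overlapping groups.

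TRAM1, a membrane protein that contacts nascent chains at the channel, rose by 0.21 (adjusted p = 0.0280), with overlapping groups. Its paralog TRAM2 fell by 0.41 (adjusted p = 0.000143). The small channel subunit SEC61G rose by 0.21 (adjusted p = 0.0432), with overlapping groups. The genes of the post-translational route, SEC62 and SEC63, did not pass the test at 0.16 and 0.15 on the log2 scale (adjusted p = 0.0715 and 0.0581). SEC61A2, a second pore gene at about 10 CPM, stood at -0.02 (adjusted p = 0.907).

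Signal peptidase removes the signal sequence once the chain has entered. Of its 5 genes 4 rose and 1 fell, beside 19.0% called higher and 21.2% called lower of all genes tested. Without siControl replicate 2, siZEB1 replicate 1 or siZEB1 replicate 2, 2 rose. The catalytic subunits SEC11A and SEC11C rose by 0.17 (adjusted p = 0.0448) and 0.63 (adjusted p = 5.61e-05), and the accessory subunits SPCS2 and SPCS3 by 0.17 (adjusted p = 0.0437) and 0.42 (adjusted p = 0.000455). SPCS1, another accessory subunit, was at 91.1, 86.5 and 94.2 CPM with siControl and at 48.6, 52.8 and 44.8 CPM with siZEB1. It fell by 0.89 ± 0.074 (SE, adjusted p = 5.92e-08). Exons of GLT8D1 and NEK4 on the opposite strand overlap 58.13% of its exonic bases.

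The oligosaccharyltransferase, which adds N-glycans to chains at the channel, had 5 of 11 tested genes higher and none called lower, with a median of 0.14. Leaving out siControl replicate 2, siZEB1 replicate 1 or siZEB1 replicate 2 left 3 of 11 higher. Among the called genes the 3 largest rises were in OSTC (0.41, adjusted p = 9.58e-05), RPN2 (0.30, adjusted p = 0.000353) and MAGT1 (0.28, adjusted p = 0.00818). KRTCAP2 stood higher, at 0.47, but did not pass the test (adjusted p = 0.100), with overlapping groups. TUSC3 was below the filter.

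The ER membrane protein complex (EMC), which inserts membrane segments that SEC61 handles poorly, had 3 genes higher and 2 lower of 9 tested. When siControl replicate 2, siZEB1 replicate 1 or siZEB1 replicate 2 was left out, EMC10 was the 1 gene still called higher. MMGT1, its subunit EMC5, was at 119.8, 113.6 and 113.7 CPM with siControl and at 48.9, 44.8 and 49.0 CPM with siZEB1, and fell by 1.28 ± 0.067 (SE, adjusted p = 2.48e-10). EMC4 fell by 0.32 (adjusted p = 0.00139), while EMC10 rose by 0.55 (adjusted p = 1.94e-05) and EMC7 by 0.19 (adjusted p = 0.0248). EMC6 was below the filter.

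The GET pathway, which inserts tail-anchored proteins after translation without SRP, had 2 genes higher and 2 lower of 7. Its membrane receptor is made of GET1 and CAMLG, and these moved apart as the SRP receptor subunits did. GET1 was at 9.36, 9.20 and 9.96 CPM with siControl and at 3.13, 4.73 and 4.39 CPM with siZEB1, and fell by 1.22 ± 0.15 (SE, adjusted p = 4.42e-06). CAMLG was at 45.6, 43.1 and 43.8 CPM with siControl and at 62.0, 68.1 and 63.9 CPM with siZEB1, and rose by 0.55 ± 0.069 (SE, adjusted p = 7.35e-06). GET1 shares 13.62% of its exonic bases with a readthrough gene on the same strand, annotated as WRB-SH3BGR. SGTA, a cytosolic chaperone that receives tail-anchored proteins, rose by 0.40 (adjusted p = 0.000103), and UBL4A, which links it to the targeting factor, fell by 0.24 (adjusted p = 0.00891).

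Among 8 genes of nascent chain sorting and ribosome docking, 1 rose, none was called lower and 7 did not pass the test. The gene that rose was BTF3L4, a paralog of a subunit of the nascent polypeptide-associated complex (0.44, adjusted p = 3.15e-05). The median of this list was 0.00.

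**Figure D3:**
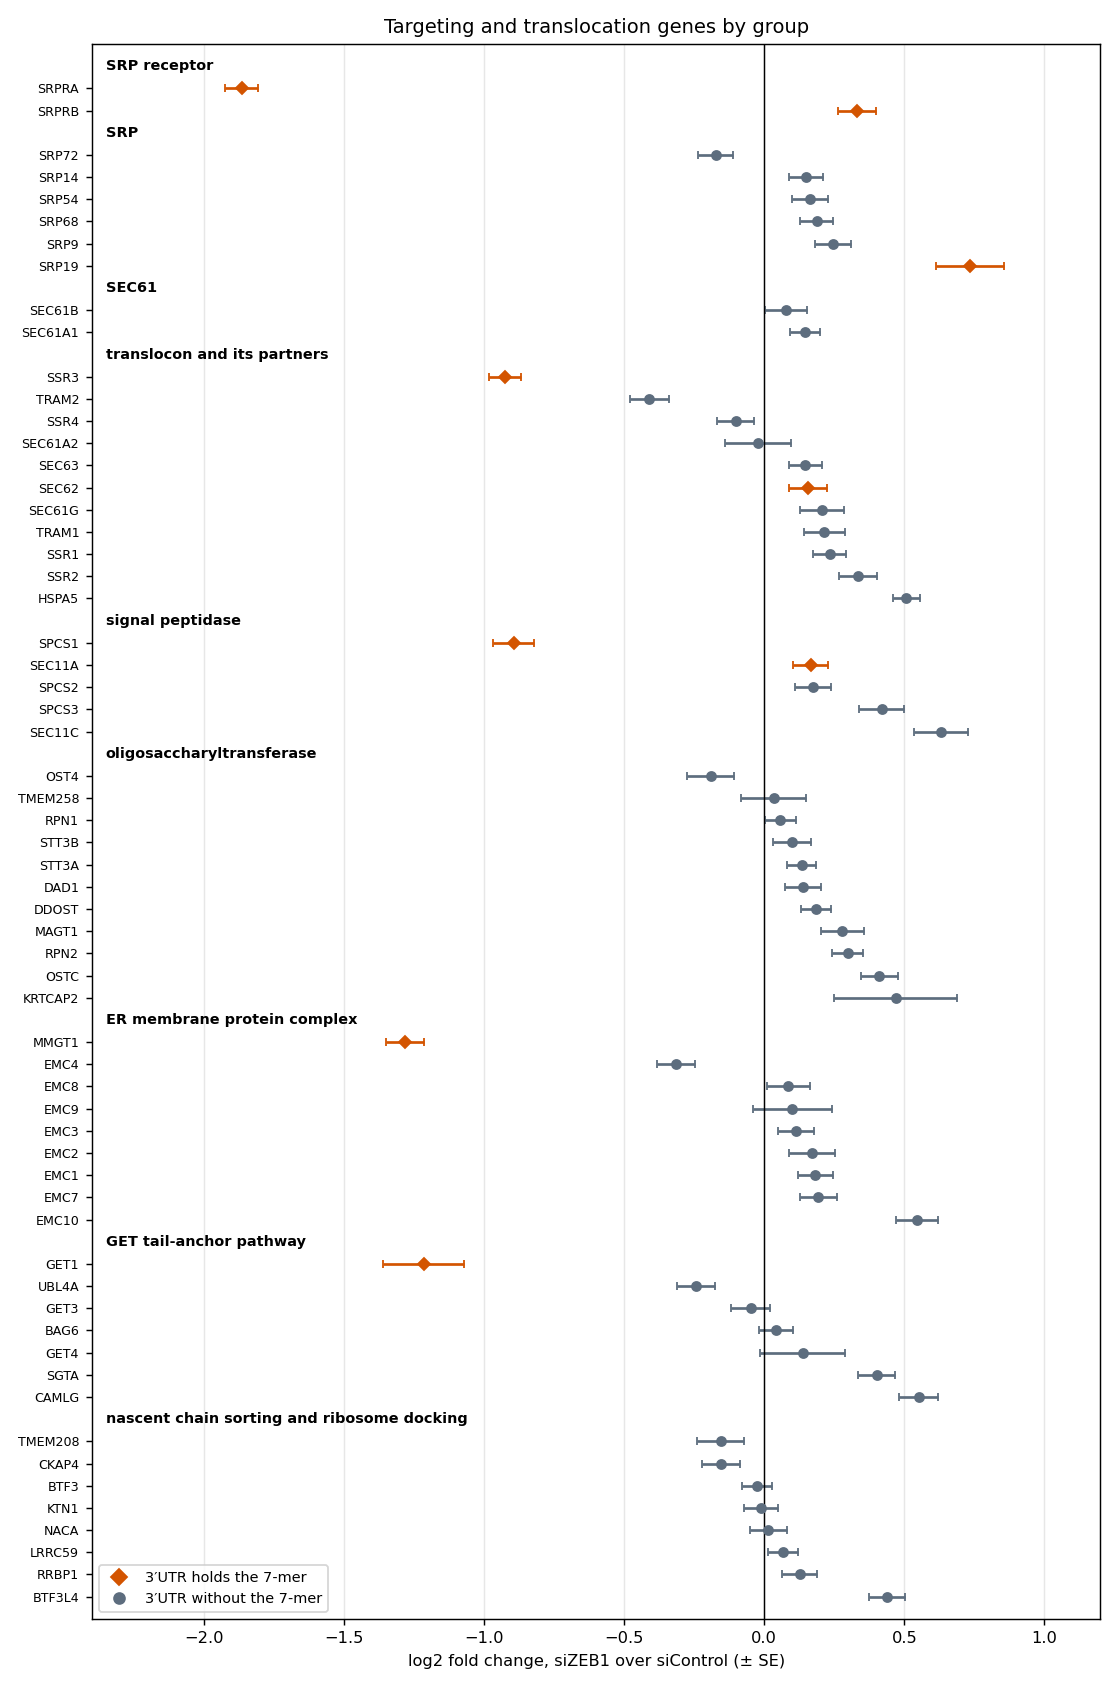
Log2 fold change of siZEB1 over siControl (± SE, edgeR fit over 3 cultures a group) for the 10 genes and the 51 tested genes of the 6 lists, ordered within each group. Orange diamonds mark the 9 genes whose 3′UTR holds the 7-mer, which include the 5 lowest values, from -1.86 (SRPRA) to -0.89 (SPCS1), and 4 values above 0. The genes and the 7-mer were chosen with earlier results of these data known.

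An siRNA can lower transcripts other than its target when their 3′UTR pairs with the bases near the 5′ end of the guide strand. Whether the 7-mer shown above pairs with an siRNA used here is not known, since their sequences are not given in the sources used here. The 7-mer was counted over the tested genes with an annotated 3′UTR in the transcript taken. It was present in the 3′UTR of 1371 of these 12228 genes (11.2%), and in 9 of the 61 genes described here (14.8%). Over the 12228 genes, those with the 7-mer had a median log2 fold change of -0.23, and those without it 0.01. Among those with it 45.2% were called lower and 12.6% higher, and among those without it 21.3% and 21.9%. Their 3′UTRs were also longer, with medians of 2898 and 958 bases. The 7-mer had been singled out in genes lower with siZEB1 in these same data, so these shares are a description and no test of it. The part of this 7-mer, of 3′UTR length and of ZEB1 itself in the lower level of SRPRA was not tested.

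Of the 9 genes that held it, 5 had log2 fold changes from -1.86 to -0.89 (SRPRA, MMGT1, GET1, SSR3 and SPCS1), and 4 were between 0.16 and 0.73 (SRPRB, SRP19, SEC62 and SEC11A). The lowest of the 52 without it was TRAM2 at -0.41. SRPRA, the lists and the 7-mer were all chosen with earlier results of these data known, so nothing is read from this division. In the windows shown above the 7-mer is followed by A only in SRPRA. Over all genes with 1 site, a split made after the data were seen, the 265 with A next had a median of -0.36 and 54.0% called lower. The 934 with another base had a median of -0.19 and 41.8% called lower. Because the 7-mer was singled out in these same data, this split is a description and no test, and nothing is read from it.

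**Figure D4:**
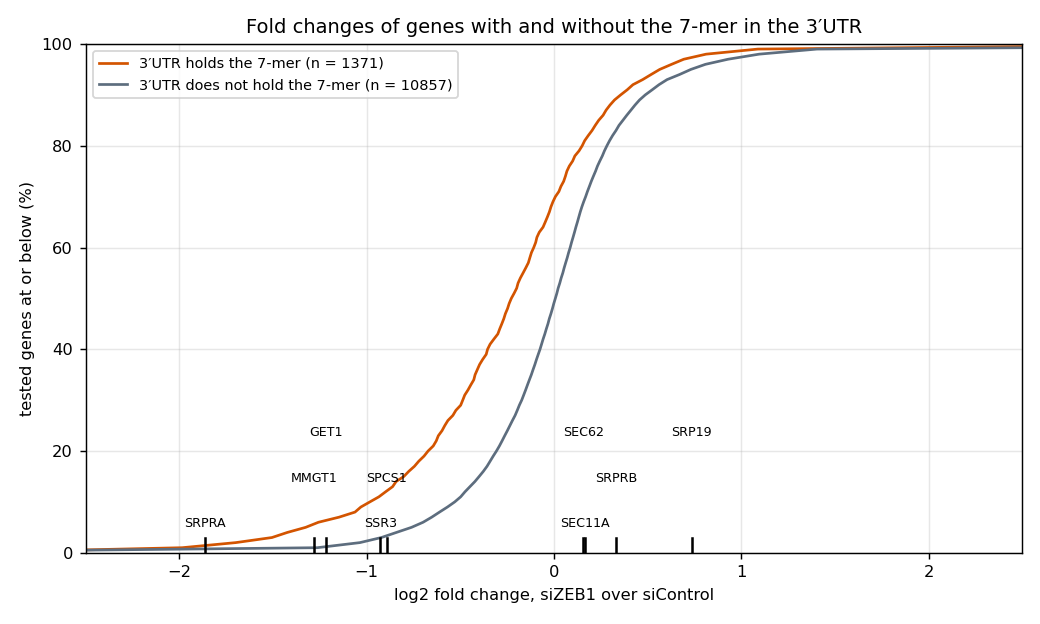
Share of tested genes (%) at or below each log2 fold change of siZEB1 over siControl, for the 1371 genes whose 3′UTR holds the 7-mer (orange) and the 10857 whose annotated 3′UTR does not hold it (grey). Black ticks mark the 9 genes of the targeting and translocation set that hold it, and the orange curve lies to the left of the grey one, with medians of -0.23 and 0.01. The 7-mer had been singled out in genes lower with siZEB1 in these same data.

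The genes whose log2 CPM followed that of SRPRA most closely over the 6 cultures were NAP1L4 (Pearson r = 0.9998), RAB7A (0.9995), PDZD11 (0.9995), CSTF2 (0.9994) and FGF18 (0.9994). All of them were lower with siZEB1, with log2 fold changes of -1.13, -1.55, -1.77, -1.64 and -2.23 in the same order. The 6 points fall into 2 groups, and 8.59% of the other tested genes had r above 0.95, so these values describe the shared group difference. The 3′UTRs of NAP1L4, RAB7A and CSTF2 hold the 7-mer, and those of PDZD11 and FGF18 do not.

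ZEB1 binds E-boxes with the letters CAGGTG. In RefSeq promoters of GRCh38.p14, from 250 bases before to 50 after each start, CAGGTG was found on either strand in 20.6% of 35116 promoters. That share is over promoter entries, while the genes below were counted once each, as holding the motif if any entry did. Of the 10 genes 9 have an entry, SRPRA being the other, and 1 of these 9 holds the motif, SRP19. Of the 45 list genes with an entry 7 hold it, of which SEC11C, EMC10 and BTF3L4 rose, SSR3 fell, and SEC61A2, EMC8 and KTN1 did not pass the test. The SRP19 promoter is shown with the E-box in capitals. The E-box lies 77 bases before the RefSeq start, which is downstream of the GENCODE 29 gene start given above, so by the latter it lies inside the gene.
SRP19 (chr5:112861037-112861336, plus strand): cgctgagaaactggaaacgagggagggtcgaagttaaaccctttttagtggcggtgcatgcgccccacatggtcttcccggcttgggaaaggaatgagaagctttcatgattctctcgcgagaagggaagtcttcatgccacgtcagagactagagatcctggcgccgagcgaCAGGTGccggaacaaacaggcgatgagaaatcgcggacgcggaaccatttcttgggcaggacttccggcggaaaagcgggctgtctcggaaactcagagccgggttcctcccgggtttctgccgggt
The ER stress element, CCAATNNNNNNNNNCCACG on either strand, was found in 0.0769% of the promoters. None of the 9 held it, and among the list genes it was found in that of HSPA5.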

How the data were processed

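Gene-level read counts were deposited by the authors for 6 cultures, as whole numbers that had not been normalized. Per the labels, reads were trimmed with Trimmomatic, aligned to hg38 with HISAT2, handled with SAMtools and counted with featureCounts. Versions, the annotation, the use of strand and the treatment of shared reads are not given in the sources used here. The study describes 3 biological replicates a group.

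Counts were filtered with filterByExpr, scaled by TMM and tested with edgeR 4.0.16 (R 4.3.3, limma 3.58.1), quasi-likelihood, two-sided, without covariates. Adjusted p-values are Benjamini-Hochberg over 14996 genes, called under 0.05. CPM used the same scaling. Replicates differed by 2.18 to 8.58 times the sampling noise, so none is a copy. The scripts were tested on simulated data. GENCODE 29, in which 31059 of 32029 genes matched, gave coordinates, lengths and 3′UTRs, and tables were made with Python 3.11.15, numpy 2.4.6 and pandas 2.3.3. DESeq2 1.42.0 served as an alternative, and other filters, scalings, thresholds, a replicate block and leaving out each culture were tried.

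The 10 genes, the 6 lists and the 7-mer were chosen with earlier results of these data known. Genes named were the 10 genes, ZEB1, all translocon and signal peptidase genes, in each other list the called genes with the largest rise and fall and the next 2, the SRP RNA genes, opposite-strand genes starting within 1000 bases, the markers and the 5 genes most correlated with SRPRA. SRP9P1, RN7SL3, TUSC3, KRTCAP2, EMC6, STT3A, DDOST, EMC1, EMC8 and KTN1 were named after their values were seen.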

Additional observations from a re-analysis of the deposited data

How the results depend on the processing

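The 10 genes kept their direction under all 12 alternatives of scaling, filter, test, block and left-out culture. SRPRA ran from -1.90 to -1.84 on the log2 scale, SRPRB from 0.31 to 0.37, SRP9 from 0.19 to 0.31 and SRP19 from 0.64 to 0.80. SRP14 ran from 0.11 to 0.19, SRP54 from 0.10 to 0.20, SRP68 from 0.16 to 0.22 and SRP72 from -0.22 to -0.14. SEC61A1 ran from 0.13 to 0.17 and SEC61B from 0.0084 to 0.141, the latter almost without change at its lowest. Leaving out 1 culture gave 12 to 18 of the list genes higher (12 without siControl replicate 2, 12 without siZEB1 replicate 1 and 13 without siZEB1 replicate 2, against 20 with all cultures), and 7 lower each time. Over all genes tested in each fit, leaving out 1 culture gave 2305 to 2928 genes higher and 2637 to 3311 lower. STT3A lost its call in all 6 of these fits, SEC61G, TRAM1, SEC11A, EMC1 and EMC7 in 4, and SPCS2 and DDOST in 3. HSPA5, SSR3, SPCS1, SPCS3, SEC11C, MMGT1, GET1 and CAMLG kept theirs in all 12.

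Requiring a change of over 1.5-fold at an unadjusted p under 0.05, 1081 genes were higher and 1402 lower, and at p under 0.001 678 and 1004, against 2849 and 3186 in the report. At either threshold 1 list gene was higher and 4 lower. Same-numbered cultures did not deviate together (r = -0.05, -0.09 and -0.20 for replicates 1, 2 and 3), so the numbers were not taken as pairs. With the replicate block 12 list genes were higher and 7 lower, and 2289 and 2679 of all genes, with 1 EMC gene, 2 signal peptidase genes and 3 genes each of the translocon and oligosaccharyltransferase lists higher. With no filter on low counts 1 EMC gene and 2 signal peptidase genes were higher, and with total library size only 2 signal peptidase genes were.

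Some uncalled list genes changed sign when 1 culture was left out. Over these fits SEC61A2 ran from -0.0963 to 0.0783, TMEM258 from -0.0819 to 0.110, EMC9 from -0.0231 to 0.257, GET3 from -0.102 to 0.0139, NACA from -0.0382 to 0.0554, BTF3 from -0.0527 to 0.0140 and KTN1 from -0.0668 to 0.0287. The intervals of the 10 genes rest on 3 cultures a group. SRP19, with 146 to 267 counts per culture, had the largest SE of the 10, 0.12.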
